A study of Mus musculus with 8 samples.

Results

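The 10 genes described here carry fatty acids into cells and bind them there. They were chosen by symbol (Lpl, Gpihbp1, Angptl4, Cd36, Fabp3, Fabp4, Fabp5, Slc27a1, Slc27a2 and Slc27a4) from the 41388 Ensembl genes of each table, and all 10 were among the 16705 genes with enough reads to be tested. RNA was sequenced from brown adipose tissue of 8 C57BL/6J mice held at room temperature on regular chow. The 4 control mice (WT) were labelled wild type with flox/flox alleles. In the 4 ANKO mice, an adiponectin-Cre transgene, driven by a promoter that works in adipocytes, deleted floxed Nampt, the gene of the enzyme that starts NAD+ salvage from nicotinamide. The labels give neither age nor sex, and name no Cre in the controls. This Cre acts in adipocytes of fat depots in general and not in the vessels, macrophages or muscle fibres that a dissected pad can also hold.

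Brown fat takes up fatty acids from circulating lipoproteins and burns them to make heat. Lipoprotein lipase, made largely by adipocytes, is carried by GPIHBP1 to the inner face of capillaries, where it frees fatty acids from triglycerides, and ANGPTL4 inactivates it. CD36 and the FATP proteins (Slc27a genes) bring the fatty acids into endothelial cells and adipocytes or trap them as acyl-CoA, and FABP proteins bind them in the cytosol.

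Levels are given as CPM, counts relative to the library total, scaled for library composition by TMM. A gene was called changed at an edgeR quasi-likelihood adjusted p under 0.05 (Benjamini-Hochberg over all 16705 genes). Of the 10 genes, 8 fell in ANKO and 1, Fabp5, rose, while Slc27a1 did not pass the test. Among all genes tested, 58.2% were called, 27.6% lower and 30.6% higher. Slc27a2 and Fabp3 fell by more than 6-fold, and the other 6 lower genes fell between 1.43-fold and 1.87-fold. The median log2 fold change was -0.56 over the 10 genes and -0.01 over all genes tested. Genes abundant in WT were more often lower. Of the 2012 genes with a WT mean of at least 100 CPM, 62.3% were called lower and 6.61% higher, with a median of -0.47. The cut was on WT alone and leaves out genes high only in ANKO, which favours lower calls. Of the 8 fatty acid genes at or above 100 CPM in WT 7 were called lower, with a median of -0.59. The same cut left out Fabp5, which rose (means of 24.1 CPM in WT and 128 CPM in ANKO). It also left out Slc27a4, which fell (59.5 and 41.5 CPM). In 9 of the 10 genes the 4 ANKO libraries lay outside the range of the 4 WT libraries, against 55.0% of all genes tested.

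**Figure D1:**
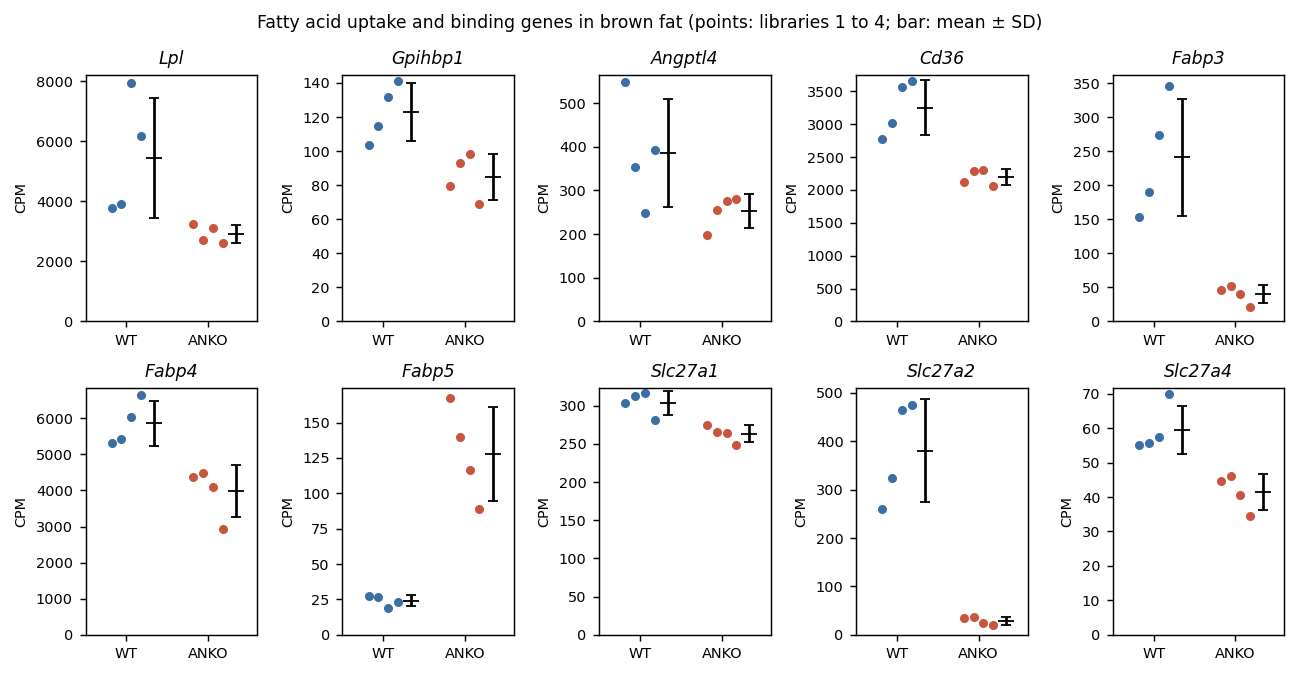
CPM of each gene in the 4 WT and 4 ANKO libraries, with y axes from 0; points from left to right are libraries 1 to 4 and bars are mean ± SD. Fabp5 sits higher in every ANKO library, Angptl4 overlaps between the groups, and the other 8 genes are lower in every ANKO library.

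Depth was 21771276 to 49697156 counts in WT and 26426476, 8700629, 10107921 and 5738067 in ANKO1 to ANKO4, so ANKO4 was the shallowest. Only ANKO1 lay within the WT range. The rRNA rows took up 2.83% to 3.53% of each WT library and 0.801% to 1.13% of each ANKO library. Mitochondrial genes took up 7.15% to 7.56% of the remainder for WT and 2.22% to 3.11% for ANKO. What these library differences contributed to the gene changes was not tested. Nampt checked the labels: it was at 484 to 571 CPM in WT and 67.4 to 77.6 CPM in ANKO (log2 fold change -2.81, edgeR adjusted p = 1.51e-07; exact two-sided permutation p = 0.0286, the smallest that 4 against 4 allow). Ucp1, the uncoupling protein that defines brown fat, was present in every library, with 3369 to 8829 CPM in WT and 317 to 1673 CPM in ANKO. The cell makeup of the samples differed. The 12 skeletal muscle markers, led by Myh4, Acta1 and Atp2a1, summed to 1022, 2901, 134 and 40.0 CPM in WT1 to WT4 and to 10174 to 15326 CPM in ANKO. Of them 9 were called higher and 3, Atp2a1 among them, did not pass. The 12 macrophage markers (led by Lyz2, Mpeg1 and C1qa) summed to 142 to 201 CPM in WT and 1171 to 1718 CPM in ANKO, and all 12 rose. The 12 endothelial markers (led by Ptprb, Kdr and Pecam1) summed to 1547 to 1778 CPM in WT and 1244 to 1436 CPM in ANKO, with 4 lower and 1 higher. The 12 adipocyte markers (led by Cfd, Plin1 and Cidec) summed to 11366 to 13197 CPM in WT and 4120.3 to 5737 CPM in ANKO, with 11 lower and 1 higher. Over all genes tested, 27.6% were called lower and 30.6% higher. No marker was at 0 in any library. In bulk tissue, fewer cells of a type and less RNA per cell cannot be told apart.

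On GRCm38, the coordinates of the deposited tables, the genes lie apart from each other except for Fabp4 and Fabp5, which share a cluster of FABP genes on chromosome 3. Lpl is at chr8:68880491-68907448 on the plus strand, Gpihbp1 at chr15:75596628-75599481 (plus) and Angptl4 at chr17:33773750-33781575 (minus). Cd36 is at chr5:17781690-17888959 (minus). Fabp3 is at chr4:130308595-130315463 (plus), Fabp4 at chr3:10204347-10208576 (minus) and Fabp5 at chr3:10012548-10016607 (plus). Slc27a1 is at chr8:71568927-71586708, Slc27a2 at chr2:126552407-126588243 and Slc27a4 at chr2:29802634-29817522, all on the plus strand.

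Many genes of this pathway are known targets of PPAR receptors, which bind repeats of the hexamer AGGTCA next to their partner RXR. RefSeq promoter windows (GRCm38.p6, 250 bases before to 50 after a gene's start) were held for 5 of the 10 genes, Cd36, Fabp3, Slc27a1 (3 windows), Slc27a2 and Slc27a4. AGGTCA, searched on both strands, was found in 2 of these 7 windows, those of Slc27a2 and Cd36, and in 16.3% of the 32851 windows of all genes. A direct repeat of it, AGGTCA then any base N then AGGTCA again, was in none of the 7 windows and in 0.0396% of all windows. The 30 bases around both matches are printed because Slc27a2 had the largest fall of the 10 genes and Cd36 a small one. They run 5′ to 3′ along the gene, and the capitals mark the hexamer, which lies on the opposite strand:
Slc27a2: gcaccacgccttTGACCTtttcaacgtggg
Cd36: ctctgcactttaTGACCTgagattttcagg
The Slc27a2 stretch (chr2:126552792-126552821, plus strand) holds the match 220 to 215 bases before the RefSeq start, inside the first exon of the GENCODE M21 model. The Cd36 stretch (chr5:17836107-17836136, minus strand) holds it 228 to 223 bases before the RefSeq start. That start lies inside the deposited Cd36 span, chr5:17781690-17888959, and not at its 5′ end. A match describes letters only, and no binding was measured.

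Of the lipase axis, Lpl had the widest spread in WT. Lpl, the lipase gene, was at 3774, 3899, 7963 and 6179 CPM in WT1 to WT4 and at 3240.3, 2716, 3117 and 2613 CPM in ANKO1 to ANKO4. The groups did not overlap, but WT1 and WT2 lay closer to ANKO than to WT3 and WT4. The mean went from 5454 ± 2005 to 2922 ± 304 CPM (SD, n = 4 each), a 1.87-fold decrease (log2 fold change -0.90, standard error (SE) of 0.26, edgeR adjusted p = 0.0126). This value depended on which WT libraries were compared. Without WT3 and WT4, the libraries with little muscle RNA, the log2 fold change was -0.41 and not called (edgeR adjusted p = 0.180), and without WT1 and WT2 it was -1.30 (edgeR adjusted p = 0.00202). With the mean log2 level of the muscle markers added to the model as a covariate it was 0.01 ± 0.39 (standard error, edgeR adjusted p = 0.988). All 4 ANKO libraries had more muscle RNA than any WT library, so genotype and muscle RNA cannot be told apart well in that model.

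Gpihbp1, whose product anchors the lipase on capillary endothelium, was at 103, 114, 132 and 141 CPM in WT and at 79.2, 93.2, 98.5 and 68.9 CPM in ANKO. The groups did not overlap, and the gene fell 1.44-fold (log2 fold change -0.53, SE 0.14, edgeR adjusted p = 0.00753). Of the 12 endothelial markers 4 were lower, 1 was higher and 7 were not called, against 27.6% lower and 30.6% higher over all genes tested. Set against the summed RPKM of these markers (CPM per kb of gene length), Gpihbp1 was at 11.0%, 14.7%, 16.1% and 15.9% in WT. In ANKO it was at 9.30%, 12.5%, 14.1% and 11.3%, with the groups overlapping. The ratio of Lpl to Gpihbp1 RPKM also overlapped, at 12.8 to 22.7 in WT and 10.9 to 15.3 in ANKO. The call of Gpihbp1 was lost without WT3 and WT4 (log2 fold change -0.37, edgeR adjusted p = 0.0638) and with the muscle covariate (-0.20, edgeR adjusted p = 0.546).

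Angptl4, the secreted inhibitor of the lipase that rises with fasting, was at 548, 354, 249 and 393 CPM in WT and at 197, 256, 276 and 281 CPM in ANKO. WT3 lay within the ANKO range, so this was the 1 gene of the 10 whose groups overlapped. It was called 1.53-fold lower (log2 fold change -0.61, SE 0.22, edgeR adjusted p = 0.0360), a call near the threshold. Leaving out WT1, WT4, ANKO1, ANKO2 or ANKO3 ended it, with edgeR adjusted p-values of 0.0788, 0.0627, 0.0969, 0.0643 and 0.0549. It also ended without WT1 and WT2 together (log2 fold change -0.37). It ended too with upper quartile scaling (log2 fold change -0.52) and with library totals alone as scaling (log2 fold change -0.42). With the muscle covariate Angptl4 was not called either, and its estimate was larger and less precise (-0.93 ± 0.39, standard error). Its order among the WT libraries was the reverse of that of Lpl at the ends: WT1 had the most Angptl4 and the least Lpl, and WT3 the least Angptl4 and the most Lpl. The ratio of Angptl4 to Lpl RPKM was 0.301, 0.188, 0.0648 and 0.132 in WT and 0.126, 0.195, 0.183 and 0.223 in ANKO, so it varied more among WT mice than between the groups.

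Genes of lipase maturation and inhibition were called at about the rate of all genes tested. Of 17 such genes 13 were tested, 4 of them called lower and 4 called higher, against 27.6% lower and 30.6% higher over all genes. Their log2 fold changes had a median of -0.06. Lmf1, the endoplasmic reticulum factor needed to fold the lipase, fell from 68.9 ± 2.66 to 31.2 ± 2.48 CPM (SD, n = 4 each; 2.20-fold, edgeR adjusted p = 3.38e-06). Its partner Sel1l rose 1.26-fold, a call lost without WT3 and WT4 (edgeR adjusted p = 0.0645) and with the muscle covariate (0.362). Lmf1 kept its call in every alternative run, with log2 fold changes of -1.19 to -0.96. Apoc1, an apolipoprotein that inhibits the lipase, fell 6.30-fold, from 243 ± 32.4 to 38.4 ± 11.8 CPM, and the proprotein convertase Pcsk6 fell 3.44-fold. Angptl8, a secreted, insulin-responsive protein of the same family as ANGPTL4, rose 1.57-fold. Its levels in ANKO were 49.4, 41.0, 34.4 and 23.9 CPM, and that of ANKO4 lay inside the WT range of 22.7 to 25.0 CPM. It was not called without WT3 and WT4 (edgeR adjusted p = 0.0573), where its log2 fold change was 0.64 against 0.65 with all libraries, nor with the muscle covariate (0.75, edgeR adjusted p = 0.138). Sdc1, a heparan sulfate proteoglycan of the cell surface, rose 7.65-fold, from 5.28 to 40.3 CPM. The lipase activator Apoc2 had too few reads to be tested, 2 to 6 counts in WT and 2 to 54 in ANKO.

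Among receptors for lipoproteins, 3 of 8 fell and 3 rose (median log2 fold change 0.35), against 27.6% and 30.6% of all genes tested. Vldlr, which binds triglyceride-rich lipoproteins beside the lipase, fell 2.28-fold from 382 ± 46.6 to 167 ± 13.8 CPM. Scarb1, the HDL receptor, fell 1.47-fold and the sorting receptor Sort1 1.39-fold, and neither was called with the muscle covariate (edgeR adjusted p = 0.0923 and 0.221). Msr1, a scavenger receptor of macrophages, rose 11.9-fold to 18.2 ± 6.94 CPM, in libraries where macrophage markers were also higher. Lsr, a lipoprotein receptor best known in liver, rose 2.91-fold at low levels and was not called with the muscle covariate (edgeR adjusted p = 0.0831).

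Cd36, the fatty acid translocase of endothelium, adipocytes and muscle, was at 2778, 3018, 3560.3 and 3650.2 CPM in WT and at 2127, 2294, 2304 and 2053 CPM in ANKO. Every ANKO library was lower than every WT library. It fell 1.48-fold (log2 fold change -0.57, SE 0.16, edgeR adjusted p = 0.0111). Without WT3 and WT4 the call was lost (log2 fold change -0.42, edgeR adjusted p = 0.138), and so it was with the muscle covariate (-0.25, edgeR adjusted p = 0.578). Of 8 genes that regulate CD36 or endothelial fatty acid transport 5 fell and 0 rose (median log2 fold change -0.66). Over all genes tested 27.6% were lower and 30.6% higher. Among those with a WT mean of at least 100 CPM, 62.3% were lower and 6.61% higher. Vegfb, Meox2, Tcf15 and Zdhhc4 were below that level in WT, at 70.0, 21.7, 20.4 and 27.5 CPM. Vegfb, a growth factor linked to endothelial fatty acid uptake, fell 2.32-fold, and its receptors Flt1 and Nrp1 fell 1.78-fold and 2.01-fold. Of these 3, Flt1 was not called with the muscle covariate (log2 fold change -0.46, edgeR adjusted p = 0.0549). Meox2 and Tcf15, transcription factors of the same endothelial program, did not pass, at log2 fold changes of -0.04 and -0.48.

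The 3 FABP genes moved apart from each other. Fabp3, the heart type, which is also induced in active brown fat, was at 154, 190.1, 274 and 346 CPM in WT and at 45.5, 51.9, 40.1 and 21.4 CPM in ANKO. The lowest WT library was still well above the highest ANKO library. The decrease was 6.04-fold (log2 fold change -2.60, SE 0.33, edgeR adjusted p = 0.000154). Skeletal muscle also expresses Fabp3, and muscle RNA was higher in ANKO, where Fabp3 was lower. Within the groups this did not always hold. WT2 had more muscle RNA and more Fabp3 than WT1, and ANKO2 had more of both than ANKO1. How much of the Fabp3 count came from muscle was not tested. Fabp3 kept its call without WT3 and WT4 (log2 fold change -2.12), without WT1 and WT2 (-2.98) and with the muscle covariate (-1.63, edgeR adjusted p = 0.0138). Its processed pseudogene Fabp3-ps1 held 2.19% to 4.76% of the Fabp3 count and fell 6.32-fold. The antisense neighbour Zcchc17, whose last exon overlaps that of Fabp3 by 81 bases, was 1.24-fold lower and not called. Its count was 9.58% to 92.5% of that of Fabp3, the most in ANKO4 (136 against 147 counts). The strand setting of the counting is unknown, so reads of this overlap could have gone to either gene.

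Fabp4, the adipocyte type, which capillary endothelium and macrophages also express, was at 5321, 5416, 6049 and 6659 CPM in WT and at 4382, 4497, 4102 and 2922 CPM in ANKO. The groups did not overlap. It fell 1.47-fold (log2 fold change -0.56, SE 0.19, edgeR adjusted p = 0.0296). The call was lost without WT3, WT4 or ANKO3 (edgeR adjusted p = 0.0662, 0.0892 and 0.0615) and with the muscle covariate (log2 fold change -0.26, edgeR adjusted p = 0.653). Without WT3 and WT4 the log2 fold change was -0.45 (edgeR adjusted p = 0.211), and without WT1 and WT2 it was -0.70 with an adjusted p just above the threshold.

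Fabp5, the epidermal type, which is abundant in macrophages and endothelium and present in adipocytes, was the only member that rose. It was at 27.5, 26.4, 19.0 and 23.3 CPM in WT and at 167, 139, 117 and 89.0 CPM in ANKO, so the lowest ANKO library had more than 3-fold the highest WT value. The increase was 5.34-fold (log2 fold change 2.42, SE 0.20, edgeR adjusted p = 5.50e-06). It was called in every alternative run, with log2 fold changes of 2.19 to 2.58. The summed macrophage markers were 8.46-fold higher in ANKO, and among the ANKO libraries they were highest in ANKO3 and ANKO4, where Fabp5 was lowest. Their part in the rise of Fabp5 was not tested. The pseudogene Fabp5l2 held 0.248% to 1.80% of the Fabp5 count.

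Within a library, where scaling plays no part, the proportions of Fabp3 and Fabp5 among the FABP genes changed. Fabp4 made up 96.1% to 97.7% of the summed FABP RPKM in WT and 98.5% to 98.9% in ANKO on the deposited lengths. Per transcript length its share of the 3 genes overlapped, at 94.4% to 96.5% in WT and 95.6% to 96.6% in ANKO. The Fabp3 share went from 2.18%, 2.64%, 3.38% and 3.87% in WT to 0.792%, 0.880%, 0.747% and 0.561% in ANKO. The Fabp5 share went from 0.0543% to 0.0903% in WT to 0.502% to 0.671% in ANKO. The deposited length of Fabp5 (3567 bases) includes a retained intron, so its RPKM is low for its transcript, and that of Fabp4 (637 bases) is shorter than its GENCODE transcript. Per length of the longest coding transcript (987 bases for Fabp5, 896 for Fabp4), Fabp5 rose from 0.272% to 0.453% of the 3 genes in WT to 2.49% to 3.31% in ANKO. On that scale Fabp3 exceeded Fabp5 by 6.70-fold to 17.8-fold in WT and was below it in all 4 ANKO libraries, at 0.289 to 0.446 of its level. On the deposited lengths the Fabp3 to Fabp5 ratio was 24.2 to 64.4 in WT and 1.04 to 1.61 in ANKO. The ratio thus fell 34.2-fold between the group means with either length.

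Of the other FABP genes, Fabp1, Fabp2, Fabp6, Fabp7, Fabp9, Fabp12 and Pmp2 had too few reads to be tested. Their highest count in any library was 14 (Fabp7 in WT4), and Fabp6 had 0 counts in all 8. Of 3 other binding proteins tested, Scp2, a carrier of sterols and fatty acyl-CoA in peroxisomes, fell 1.58-fold. That call was lost without WT3, WT4 or ANKO3 (edgeR adjusted p = 0.0765, 0.0594 and 0.0885) and without WT3 and WT4 together (0.148), and with the muscle covariate (log2 fold change -0.38). The acyl-CoA binding protein gene Dbi was at a log2 fold change of -0.55 and did not pass (edgeR adjusted p = 0.0545). Got2, a mitochondrial aspartate aminotransferase also described as a fatty acid binding protein of the plasma membrane, rose 2.62-fold from 16.5 ± 2.27 to 43.3 ± 4.36 CPM.

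**Figure D2:**
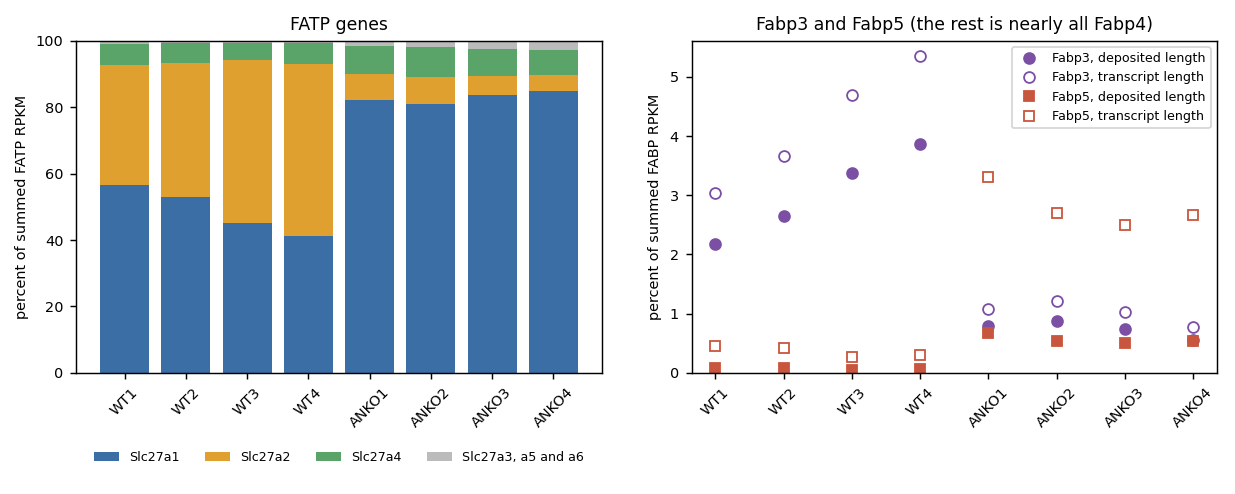
Left, stacked shares of the summed RPKM of the 6 FATP genes in each library, where Slc27a2 goes from 36.0% to 51.8% in WT to 5.03% to 8.23% in ANKO. Right, shares of Fabp3 (circles) and Fabp5 (squares), as filled symbols of all 10 FABP genes on deposited lengths and as open symbols of Fabp3, Fabp4 and Fabp5 on transcript lengths; by the open symbols Fabp3 is above Fabp5 in each WT library and below it in each ANKO library.

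The 3 FATP genes of the set differed in the size of their change. Slc27a2 encodes FATP2, an acyl-CoA synthetase for very long-chain fatty acids of peroxisomes and the endoplasmic reticulum that also takes part in uptake. It was at 259, 323, 465 and 475 CPM in WT and at 35.7, 36.3, 24.7 and 19.8 CPM in ANKO. The lowest WT library was thus more than 7-fold above the highest ANKO library. The log2 fold change was -3.70 (SE 0.27, edgeR adjusted p = 3.04e-06), and it stayed between -4.03 and -2.96 and called in all alternatives. The antisense non-coding gene Gm26697, which overlaps the first exon, had 25 to 48 counts in WT and 0 to 1 in ANKO, at most 0.611% of the Slc27a2 count.

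Slc27a1, which encodes the insulin-responsive FATP1 of fat and muscle, was at 304, 313, 317 and 281 CPM in WT and at 275, 266, 265 and 249 CPM in ANKO. All ANKO libraries were lower, but the gap between the groups was narrow. The log2 fold change was -0.21 (95% interval -0.42 to 0.01) and was not called by edgeR (adjusted p = 0.0966), whereas DESeq2 called it (adjusted p = 0.00967). With library totals alone as scaling it was -0.02. Slc27a4, encoding FATP4, a broadly expressed acyl-CoA synthetase of the endoplasmic reticulum, was at 55.1, 55.6, 57.3 and 70.0 CPM in WT and at 44.7, 46.1, 40.6 and 34.5 CPM in ANKO. The groups did not overlap, and it fell 1.43-fold (log2 fold change -0.52, SE 0.12, edgeR adjusted p = 0.00363). It remained called without WT3 and WT4 (log2 fold change -0.43) and was not called with the muscle covariate (-0.24, edgeR adjusted p = 0.379).

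Because of these unequal changes the makeup of FATP transcripts differed between the groups. Slc27a1 was 41.2% to 56.7% of the summed FATP RPKM in WT and 81.0% to 84.7% in ANKO. Slc27a2 was 36.0%, 40.6%, 49.2% and 51.8% in WT1 to WT4 and 7.93%, 8.23%, 5.80% and 5.03% in ANKO1 to ANKO4. In WT3 and WT4 there was more Slc27a2 than Slc27a1 per length (Slc27a1 to Slc27a2 ratios of 0.916 and 0.794), and in ANKO there was 9.85-fold to 16.8-fold more Slc27a1. The summed FATP level was 192 to 252 RPKM in WT and 105 to 119.7 RPKM in ANKO. Of the other 3 FATP genes, Slc27a5 had 1 to 6 counts per library and was not tested. Slc27a3 did not pass (log2 fold change 0.54, edgeR adjusted p = 0.0514), and Slc27a6 rose 4.01-fold at levels under 1.1 CPM. With the muscle covariate its log2 fold change was 1.27 and not called (edgeR adjusted p = 0.162).

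**Figure D3:**
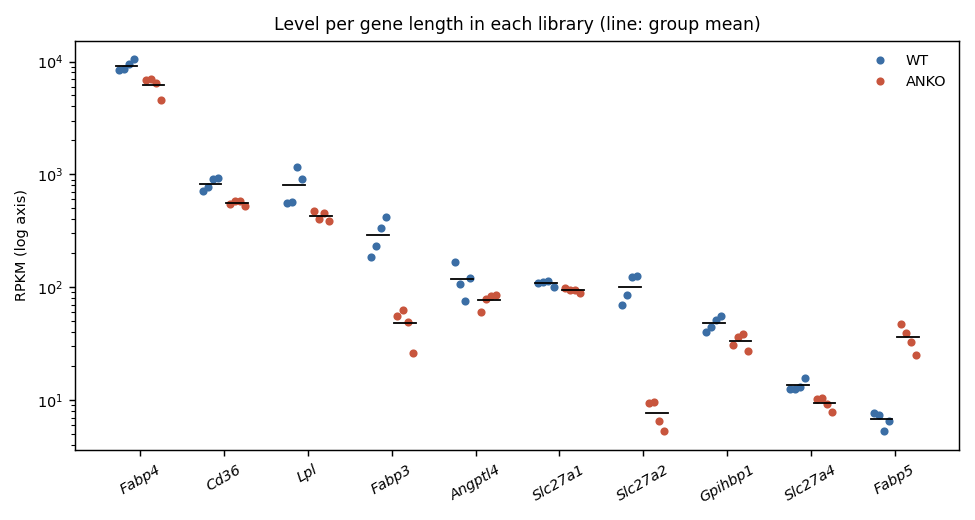
RPKM (log axis, deposited gene length) of the 10 genes in each WT (blue) and ANKO (red) library, ordered by the WT mean, with lines at group means. Fabp4 is the most abundant in both groups, Slc27a2 drops from among the middle genes to the bottom, and Fabp5 rises from the bottom to the level of Gpihbp1.

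Per gene length, Fabp4 was the most abundant of the 10 genes in both groups, at 9201 ± 977 RPKM in WT and 6241 ± 1133 RPKM in ANKO (SD, n = 4 each). It stood 11.1-fold above the next gene in WT and 11.2-fold in ANKO, or 4.94-fold and 6.25-fold per length of the longest coding transcript. In WT it was followed by Cd36 (828 RPKM) and Lpl (801 RPKM), which overlapped, and by Fabp3 (293 RPKM). Angptl4, Slc27a1 and Slc27a2 came next at 117, 109 and 101 RPKM and could not be ordered, since their ranges overlapped. Gpihbp1 (48.1 RPKM), Slc27a4 (13.5 RPKM) and Fabp5 (6.75 RPKM) were lowest, each below the range of the gene before it. In ANKO, Cd36 (559 RPKM) and Lpl (429 RPKM) no longer overlapped, and Slc27a1 (94.3 RPKM) stood above Angptl4 (76.8 RPKM). Below them Fabp3 (48.3 RPKM, overlapping Angptl4), Fabp5 (35.9 RPKM) and Gpihbp1 (33.3 RPKM) overlapped as neighbours, as did Slc27a4 (9.40 RPKM) and Slc27a2 (7.76 RPKM) at the bottom. Per transcript length Lpl stood above Cd36 on average in both groups, with overlapping ranges. Fabp5 was then the fourth in ANKO, at 129.8 RPKM against 24.4 RPKM in WT, where it was the ninth. Together the 10 genes held 1.27% to 1.74% of the counts outside rRNA in WT and 1.01% to 1.10% in ANKO.

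Adipocyte markers fell too, so each gene was also set against them within the library. Cfd made up 44.6% to 54.2% of the summed marker RPKM in WT and 13.6% to 17.4% in ANKO, and was left out of the sum in a version chosen after the values were seen. Against the other 11 markers, Fabp3 was lower in all ANKO libraries than in all WT libraries (3.33-fold between means), and so was Slc27a2 (7.12-fold). Lpl, Gpihbp1, Angptl4 and Cd36 overlapped between the groups in this ratio. Lpl was at 0.157 to 0.310 of the marker sum in WT and at 0.193 to 0.247 in ANKO. Fabp4, Slc27a1 and Slc27a4 were higher in all ANKO libraries by this ratio, 1.25-fold, 1.62-fold and 1.29-fold between means, and Fabp5 was 9.63-fold higher. With Cfd in the sum, Lpl, Gpihbp1 and Cd36 were also higher in all ANKO libraries, by 1.77-fold, 2.24-fold and 2.20-fold. Fabp3 and Slc27a2 were still lower in all ANKO libraries with Cfd in the sum, but by less, 1.89-fold and 4.05-fold.

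**Figure D4:**
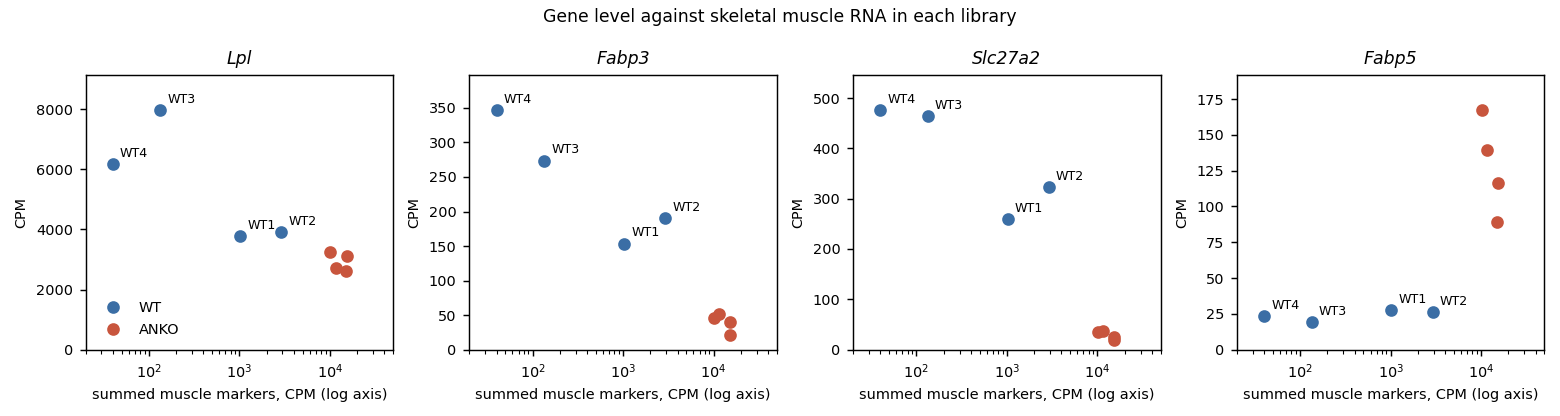
CPM of Lpl, Fabp3, Slc27a2 and Fabp5 against the summed CPM of 12 skeletal muscle markers (log axis) in the WT (blue, named) and ANKO (red) libraries. The muscle sum ranges from 40.0 to 2901 CPM in WT and from 10174 to 15326 CPM in ANKO; Lpl, Fabp3 and Slc27a2 are higher in WT3 and WT4 than in WT1 and WT2, and Fabp5 is at 19.0 to 27.5 CPM in all 4.

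Several of these genes were lower where muscle RNA was higher, between the groups and in a split of the WT group. WT3 and WT4, with muscle sums of 134 and 40.0 CPM, had more Lpl, Gpihbp1, Cd36, Fabp3, Fabp4, Slc27a2 and Slc27a4 than WT1 and WT2, with sums of 1022 and 2901 CPM. The relation was not graded: WT2 had more muscle RNA than WT1 and also more of these genes. Ucp1 followed the same split, at 8829 and 7430.0 CPM in WT3 and WT4 and 3369 and 4170 CPM in WT1 and WT2. Without WT3 and WT4, 4 of the 8 lower genes remained called, namely Angptl4, Fabp3, Slc27a2 and Slc27a4. That fit kept only WT1 and WT2 as controls, and the part of the smaller group in the lost calls was not tested. In the model with muscle level as a covariate, Fabp3 and Slc27a2 were the 2 lower genes called, and Fabp5 the 1 higher.

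**Figure D5:**
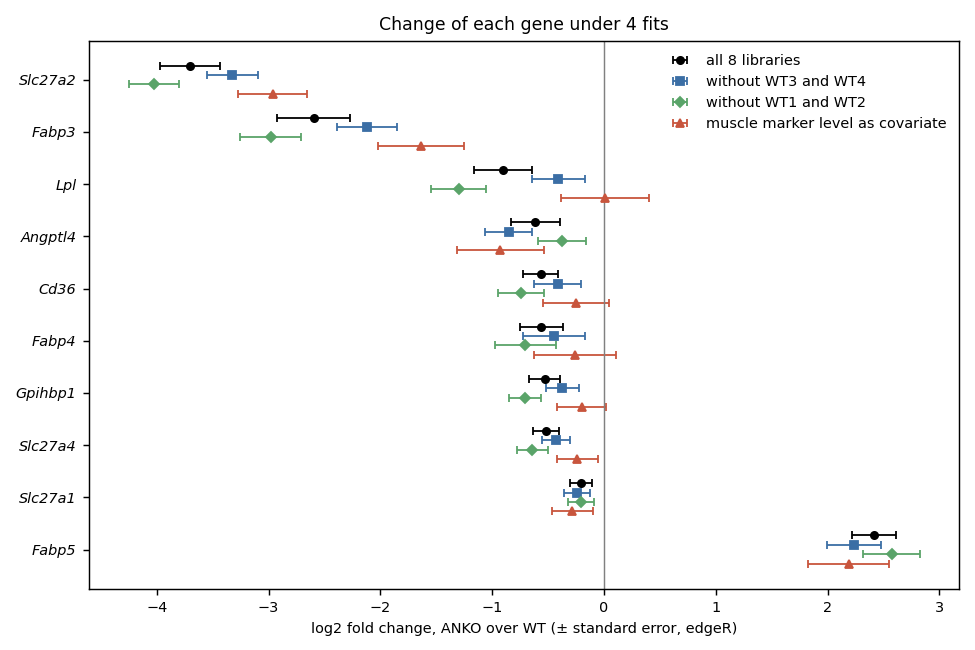
Log2 fold change of each gene, ANKO over WT, with its standard error, from edgeR fits to all 8 libraries (circles), without WT3 and WT4 (squares), without WT1 and WT2 (diamonds) and with muscle markers as a covariate (triangles). Slc27a2, Fabp3 and Fabp5 keep their side of 0 by several standard errors in all 4 fits, while Lpl ranges from -1.30 to 0.01.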

How the data were processed

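RNA of 8 brown fat samples was depleted of rRNA (Ribo-Zero Gold) per the labels' protocols, aligned with STAR 2.0.4b and counted per gene on GRCm38 with featureCounts 1.45 (Subread), per the submitters' processing notes. For strand setting and multi-mapping nothing is given in the sources used. Per the file headers, the authors deposited counts, CPM and RPKM. The deposited CPM and RPKM follow from the counts, totals and gene lengths. Only the counts were used. CPM and RPKM in the text were recomputed with TMM-scaled library sizes.

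Symbols came from GENCODE M21, which matched 40340 of 41388 genes. The 355 rRNA rows, 0.801% to 3.53% of the counts, were left out. Samples were grouped by title, 4 WT and 4 ANKO mice, and no pair of libraries agreed within sampling noise. The test was edgeR 4.0.16 (R 4.3.3): filterByExpr, TMM, robust quasi-likelihood fit, no covariate. It was tested on simulated data in which few genes changed, unlike the 58.2% called here, so that run does not test the scaling of these data. PCR copies are not independent molecules.

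The members and lists were chosen with earlier results of these data known. Named genes are Nampt, the 10 members, up to 3 called genes with the smallest p in each direction per pathway list, and the 3 most abundant of each marker list. Some genes that the rule names are not reported here. Others (Ucp1, pseudogenes, overlapping genes, genes not called) were chosen after their values were seen. Alternatives were other scalings, count filters, DESeq2 1.42.0, limma-voom (limma 3.58.1), a replicate block, left-out libraries, protein-coding genes only, a muscle covariate (mean log2 CPM of 12 markers, prior count 2) and stricter thresholds. Leaving out WT1 and WT2, transcript lengths and the marker sum without Cfd were added after seeing the data.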

Additional observations from a re-analysis of the deposited data

Results flagged for a closer look

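Of 76 groups of 4 libraries checked, 3 held a library far from the other 3 (gap over range above 0.829), where chance gives about 1 in 20. Slc27a4 was at 70.0 CPM in WT4 and at 55.1 to 57.3 CPM in the other WT libraries. Nampt was at 571 CPM in WT3 and at 484 to 495 CPM in the other WT libraries. Nrp1 was at 282 CPM in ANKO4 and at 333 to 342 CPM in the other ANKO libraries.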

How the results depend on the processing

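The 8 genes called lower were 4 without WT3 and WT4, 4 at an adjusted p under 0.01, and 2 with the muscle covariate or a 2-fold minimum. They were 6 to 8 when any 1 library was left out, and Fabp5 was called higher in all alternatives. Lpl changed sign with the muscle covariate, at 0.0102. Of all genes tested, 9726 were called, 4786 with a 2-fold minimum (1209 lower) and 4031 with the muscle covariate (2319 higher and 1712 lower). With library totals alone the split moved from 5111 higher and 4615 lower to 5897 higher and 2940 lower, and all log2 fold changes shifted by a median of 0.18. Deviations from the group means correlated at 0.11, -0.01, 0.07 and -0.05 between same-numbered WT and ANKO libraries. Differently numbered libraries ranged from -0.13 to 0.12. With 4 libraries per group this check cannot exclude pairing, and the labels state none. With the replicate block 6 of the 10 genes were called lower, without Angptl4 and Fabp4, and 9239 genes in all. The shallowest library, ANKO4, limits genes of low level: its 3 counts amount to 0.527 CPM before scaling. All 10 members had at least 136 counts in every library. With 2-fold or stricter thresholds fewer genes can pass; for the other settings the cause was not tested.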
